A study of Gallus gallus with 100 samples.

Results

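Pituitary glands of broilers after 3 weeks of cyclic heat were compared with glands of birds kept at a thermoneutral temperature, by RNA-seq of 1 library per bird. The members were all labelled birds of day 42 with a column of values, 17 heat-stressed and 10 control, which made 27 of the 98 birds with values in the series. The birds were male Ross 708 broilers, a fast-growing meat line of chicken (Gallus gallus), and day 42 is their usual market age. The heat-stressed birds lived in a house that was warmed to 35 to 37 °C for 8 hours of each day from day 21 on. The control birds lived in a separate house that stayed at 25 °C, and both houses had the same early temperature steps, light, litter, feed and water. Each treatment was 1 house, so heat and house cannot be told apart. The hour of sampling within the daily heat cycle at day 42 is not given in the sources used here. Whole glands were taken.

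The anterior pituitary releases growth hormone, prolactin, thyrotropin, the gonadotropins and the products of proopiomelanocortin, each from its own kind of cell and each under control of the hypothalamus. These hormones set growth, metabolism and the stress response of the bird. Cells in overheated tissue raise chaperones such as Hsp70 and Hsp90, which hold and refold damaged proteins, through the heat shock factors. The endoplasmic reticulum has its own set of chaperones, led by HSPA5, which is in steady use in cells that secrete hormone. CIRBP, a cold-inducible RNA-binding protein, is known in mammals to fall when cells are warmed.

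The glands had the profile of an anterior pituitary in both groups. GH had at least 17869 FPKM (fragments scaled to the length of the transcript and the mapped reads of the library) and PRL at least 1029 FPKM in all 27 birds, and CGA, TSHB, FSHB, POMC, POU1F1, LHX3 and NR5A1 were also above 0 in all 27, while PITX1 and TBX19, a pair of lineage factors, were above 0 in 26. GH, PRL, CGA and POMC together made up a median of 33.5% of the FPKM sum in heat-stressed birds and 30.9% in control birds. Of the 13931 genes listed, 1692 to 6926 were at 0 in a heat library and 1126 to 3029 in a control library (difference of means p = 0.0698, two-sided permutation test, adjusted p = 0.419 over 6 library measures). The libraries fall into 3 ranges of library number, below 1100 with 10 heat and 4 control birds, 1200 to 1400 with 2 heat birds and no control bird, and 1400 to 1500 with 5 heat and 6 control birds. A pair of libraries stood apart. Heat library 984 had 6926 genes at 0, and in control library 1012 the median gene was at -1.21 (log2) relative to the median library. By that second measure library 984 was at -0.58. Heat libraries 1015 and 1014 were as low, at -0.64 and -0.59, and were kept, while the other control libraries were at -0.08 or above. Leaving out libraries 984 and 1012 thus did not remove all low libraries. It moved the median difference over all genes from -0.02 to -0.11 (log2). A number of differences are also given without libraries 984 and 1012, and a difference given only once may have moved as well.

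No gene passed the test between heat-stressed and control birds at day 42. A gene was tested when its mean was at least 1 FPKM, and it was called at an adjusted p under 0.05 from limma, a linear model that shares the estimate of the spread among genes, on log2(FPKM + 1). Of the 9231 genes tested, 0 were called (0%), and the smallest adjusted p was 0.999. An unadjusted p below 0.05 was found for 242 genes (2.62%), of which 59 were higher (0.639%) and 183 lower (1.98%) in heat-stressed birds. A Wilcoxon rank-sum test also called 0 genes, with 284 at an unadjusted p under 0.05. In none of the 9231 genes were all heat-stressed birds above, or all below, all control birds (0%). The median difference over all genes was -0.02 (log2), and 4302 genes (46.6%) had a positive difference. The 95% interval of the difference had a median half-width of 0.53 (log2), which is 1.44-fold, and it was under 1 (log2) in 98.2% of genes. The p-values measure the spread between birds of 1 house each.

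Without libraries 984 and 1012 there were again 0 calls, with a median half-width of 0.45 (log2). Among the libraries numbered below 1100, 1 gene was called of 9231 (0.0108%) and 166 had an unadjusted p under 0.05 (1.80%). The gene was the arginine tRNA gene TRNAR-CCU, which over all libraries was listed at 0 in 13 of 17 heat-stressed birds and in 2 of 10 control birds and was named after its value was seen. Among the libraries numbered 1400 to 1500, 0 genes were called (0%), while 986 (10.7%) had an unadjusted p under 0.05, 387 higher (4.19%) and 599 lower (6.49%) in heat-stressed birds.

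Most genes of the cytosolic chaperone list had higher mean log2 values in heat-stressed birds, and none passed the test. The list also holds SERPINH1, a chaperone of the endoplasmic reticulum, and the heat shock factor HSF2. Their differences were 0.35 and -0.20 (log2). Of 47 genes on the list 29 were tested, and 18 of these (62.1%) had a positive difference, beside 46.6% of all genes tested. The median was 0.17 (log2), beside -0.02 for all genes tested. At an unadjusted p under 0.05, 5 of the 29 were higher (HSPA2, HSP90AA1, DNAJA1, BAG3 and FKBP4) and 1 was lower (HSPB1). Over all genes tested, 0.639% were higher and 1.98% lower at that p. Without libraries 984 and 1012 the median was 0.03, beside -0.11 for all genes.

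HSPA2, a member of the Hsp70 family (galGal4 chr5:52783871-52786191), had 30.39 to 443.0 FPKM with a median of 109.5 in the 17 heat-stressed birds, against 33.83 to 97.02 FPKM with a median of 69.19 in the 10 control birds. The ranges overlapped, but 12 of the 17 heat-stressed birds were above the highest control bird. The lowest bird of each group was library 984 and library 1012, and the highest was heat library 1014. The difference was 0.69 ± 0.28 (log2, SE), with a 95% interval of 0.11 to 1.26 (p = 0.0202, adjusted p = 0.999, limma). It was 0.87 among libraries below 1100, 0.68 among those of 1400 to 1500 and 0.69 without libraries 984 and 1012.

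HSP90AA1, the inducible Hsp90 (chr5:49387614-49394031), had 130.4 to 2279.7 FPKM in heat-stressed birds, with a median of 852.1, against 125.3 to 686.5 FPKM in control birds, with a median of 540.7. Here 13 of 17 heat-stressed birds were above the highest control bird, and the other 4 lay within the control range. The difference was 0.77 ± 0.37 (log2, SE), with an interval of 0.03 to 1.51 (p = 0.0432, adjusted p = 0.999, limma). It was 0.65 among libraries below 1100, 1.09 among those of 1400 to 1500 and 0.56 without libraries 984 and 1012.

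HSPD1, the mitochondrial Hsp60, was among the genes with the smallest p of those with higher values in heat-stressed birds. It had 30.28 to 98.84 FPKM in heat-stressed birds, with a median of 67.89, against 9.736 to 51.75 FPKM in control birds, with a median of 47.24. Of the 17 heat-stressed birds 12 were above the highest control bird, and 9 of the 10 control birds lay in the narrow band from 32.0 to 51.7 FPKM. The difference was 0.67 ± 0.23 (log2, SE, p = 0.00709, adjusted p = 0.999, limma), and it was 0.45 without libraries 984 and 1012. The gene overlaps COQ10B in the annotation. The other 6 mitochondrial chaperones tested had differences from -0.06 for HSPA9 to 0.68 for HSPE1, whose interval was -0.65 to 2.00. These were -0.27 and 0.21 without libraries 984 and 1012.

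Of the 9223 tested genes with no missing value, 5 (0.0542%) had at least 12 of the 17 heat-stressed birds above every control bird, and 3 (0.0325%) had at least 12 below every control bird. The 5 genes were HSPA2, HSP90AA1, HSPD1, ORMDL1 and CACYBP, and the 3 were FCN2, FGF16 and LOC395100. This count was chosen after the values were seen and is a description. CACYBP, which encodes a calcyclin-binding protein, had 7.040 to 25.66 FPKM in heat-stressed birds, with a median of 17.53, against 2.911 to 14.18 FPKM in control birds, with a median of 12.65.

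The remaining chaperones were not called either. DNAJA1, an Hsp40 co-chaperone of Hsp70, had 22.33 to 117.7 FPKM in heat-stressed birds and 11.39 to 84.73 FPKM in control birds, and its difference was 0.57 with an interval of 0.04 to 1.10 (log2). That difference was 1.22 among libraries below 1100, 0.20 among those of 1400 to 1500 and 0.35 without libraries 984 and 1012. HSPH1, an Hsp110 exchange factor, had a difference of 0.72 (interval -0.01 to 1.45), which was 0.43 without libraries 984 and 1012, with medians of 16.40 FPKM in heat-stressed birds and 12.26 FPKM in control birds. HSPA8, the constitutive Hsc70, had medians of 767.1 and 449.0 FPKM in heat-stressed and control birds, and its highest bird was control library 1419 at 1215.7 FPKM. BAG3, a co-chaperone of Hsp70, had a difference of 0.47 (interval 0.01 to 0.93). HSPB1, a small heat shock protein, went the other way, with 31.83 to 314.8 FPKM in heat-stressed birds against 77.34 to 496.9 FPKM in control birds and a difference of -0.72 (interval -1.40 to -0.05, adjusted p = 0.999, limma). The 6 tested subunits of the cytosolic chaperonin with a CCT symbol had differences from -0.40 for CCT5 to 0.25 for CCT8. These 2 were -0.64 and 0.03 without libraries 984 and 1012. TCP1, a further subunit of that chaperonin, had 0.17. RBM3, HSP90AB1, FNIP1 and LHB were not analysed here at day 42.

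**Figure D1:**
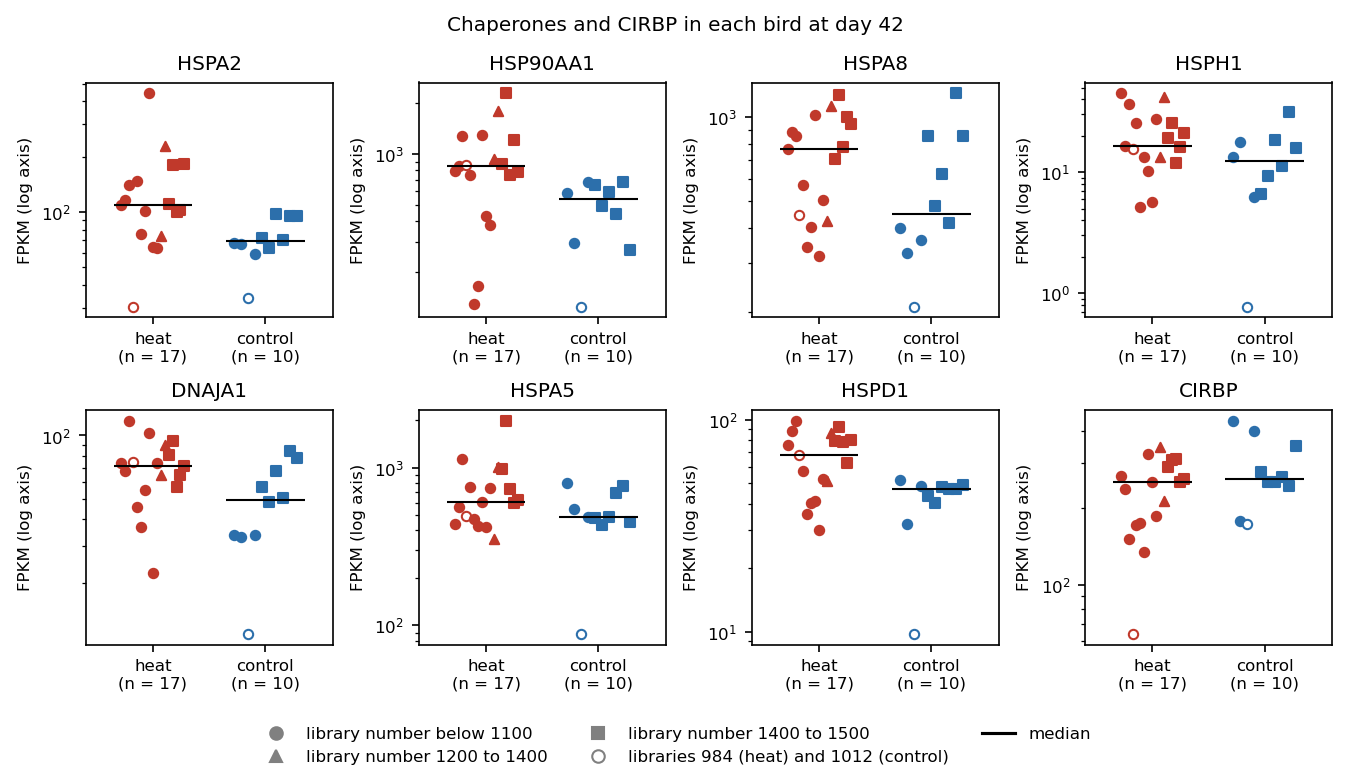
FPKM on a log axis of 7 chaperones and CIRBP in each of the 17 heat-stressed (left, red) and 10 control birds (right, blue), with the median as a line, library-number ranges as marker shapes and libraries 984 and 1012 as open circles. In HSPA2, HSP90AA1 and HSPD1 most heat-stressed birds lie above the highest control bird, while HSPA8, DNAJA1 and CIRBP overlap through most of their range.

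Chaperones of the endoplasmic reticulum were not called either. Of 34 on the list 27 were tested, and 20 of these (74.1%) had a positive difference, beside 46.6% of all genes tested. Of the 27, 0 had an unadjusted p under 0.05 in either direction, and the median was 0.18 (log2), beside -0.02 for all genes. Without libraries 984 and 1012 the median was -0.06, beside -0.11 for all genes. HSPA5, the Hsp70 of this compartment, had 350.1 to 1985.0 FPKM in heat-stressed birds, with a median of 606.0, against 87.96 to 803.0 FPKM in control birds, with a median of 487.7. Its lowest bird was control library 1012 and its highest was heat library 1433, and the difference was 0.49 with an interval of -0.08 to 1.07, and 0.25 without libraries 984 and 1012. PDIA3, a disulfide isomerase, had the most negative difference of the list at -0.60 (interval -1.23 to 0.02). It had 271.4 to 1184.7 FPKM in heat-stressed birds, with a median of 618.5, against 183.0 to 1880.4 FPKM in control birds, with a median of 1060.7.

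CIRBP and the glucocorticoid-responsive FKBP5 had negative differences. CIRBP had 63.88 to 348.1 FPKM in heat-stressed birds, with a median of 253.1, against 172.8 to 441.5 FPKM in control birds, with a median of 259.5. Of the heat-stressed birds 4 were below the lowest control bird, all of them numbered below 1100, and the difference was -0.32 (interval -0.78 to 0.13). It was -0.58 among libraries below 1100 and 0.06 among those of 1400 to 1500. FKBP5, a co-chaperone of steroid receptors, had 19.02 to 73.66 FPKM in heat-stressed birds, with a median of 50.58, against 40.95 to 111.5 FPKM in control birds, with a median of 71.09. Its difference was -0.50 with an interval of -0.91 to -0.08 (p = 0.0207, adjusted p = 0.999, limma), and it was -0.74 among libraries below 1100 and -0.12 among those of 1400 to 1500. NR3C1, the glucocorticoid receptor, had a difference of -0.41 (interval -1.38 to 0.56). Of 12 tested genes of the glucocorticoid response, 7 had a negative and 5 a positive difference, beside 4929 negative of all 9231 genes tested. The median was -0.08, beside -0.02 for all genes. Without libraries 984 and 1012 it was -0.12, beside -0.11.

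Hormone genes varied widely between birds of the same group, and none was called. In bulk tissue, fewer cells of a type and less RNA per cell cannot be told apart. PRL, which encodes prolactin, had 2857.9 to 22765.4 FPKM in heat-stressed birds, with a median of 10429.6, against 1028.5 to 15991.4 FPKM in control birds, with a median of 6622.7. The 5 highest birds were heat-stressed, and the 2 lowest were control libraries 1013 and 1414. The difference was 0.88 ± 0.39 (log2, SE), with an interval of 0.09 to 1.67 (p = 0.0303, adjusted p = 0.999, limma), and it was 0.86 among libraries below 1100, 0.98 among those of 1400 to 1500 and 0.94 without libraries 984 and 1012. PRL was the only hormone of the 7 tested with an unadjusted p under 0.05.

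GH, which encodes growth hormone and was the gene with the highest mean level of these hormones, had 18972.6 to 157459 FPKM in heat-stressed birds, with a median of 73319, against 17868.7 to 147127 FPKM in control birds, with a median of 62216. The groups overlapped over nearly the whole range, and the difference was 0.25 (interval -0.35 to 0.86). TSHB, the beta subunit of thyrotropin, had a difference of 0.44 (interval -0.37 to 1.25). Its mean went the other way, with 3602.3 FPKM in heat-stressed birds and 3688.6 FPKM in control birds, and the medians were 3468.4 and 2530.2 FPKM. Of the control birds 3 were above the highest heat-stressed bird and 2 were below the lowest. FSHB, the beta subunit of follicle-stimulating hormone, had a difference of 0.61 (interval -0.36 to 1.57), which was 0.04 without libraries 984 and 1012. CGA, the alpha subunit that thyrotropin and the gonadotropins share, had 0.18 (interval -0.57 to 0.93), and -0.19 without those libraries. POMC, the precursor of corticotropin, had 3392.1 to 91470.7 FPKM in heat-stressed birds against 5162.4 to 80854.5 FPKM in control birds, and a difference of -0.13 (interval -1.10 to 0.84). Part of the POMC locus overlaps EFR3B. CARTPT, a neuropeptide precursor, had -0.06 (interval -0.58 to 0.46), and -0.24 without those libraries, while POMC then had 0.16. For CGA and POMC the sign was opposite among libraries below 1100 (0.81 and -0.75) and those of 1400 to 1500 (-0.38 and 0.54).

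**Figure D2:**
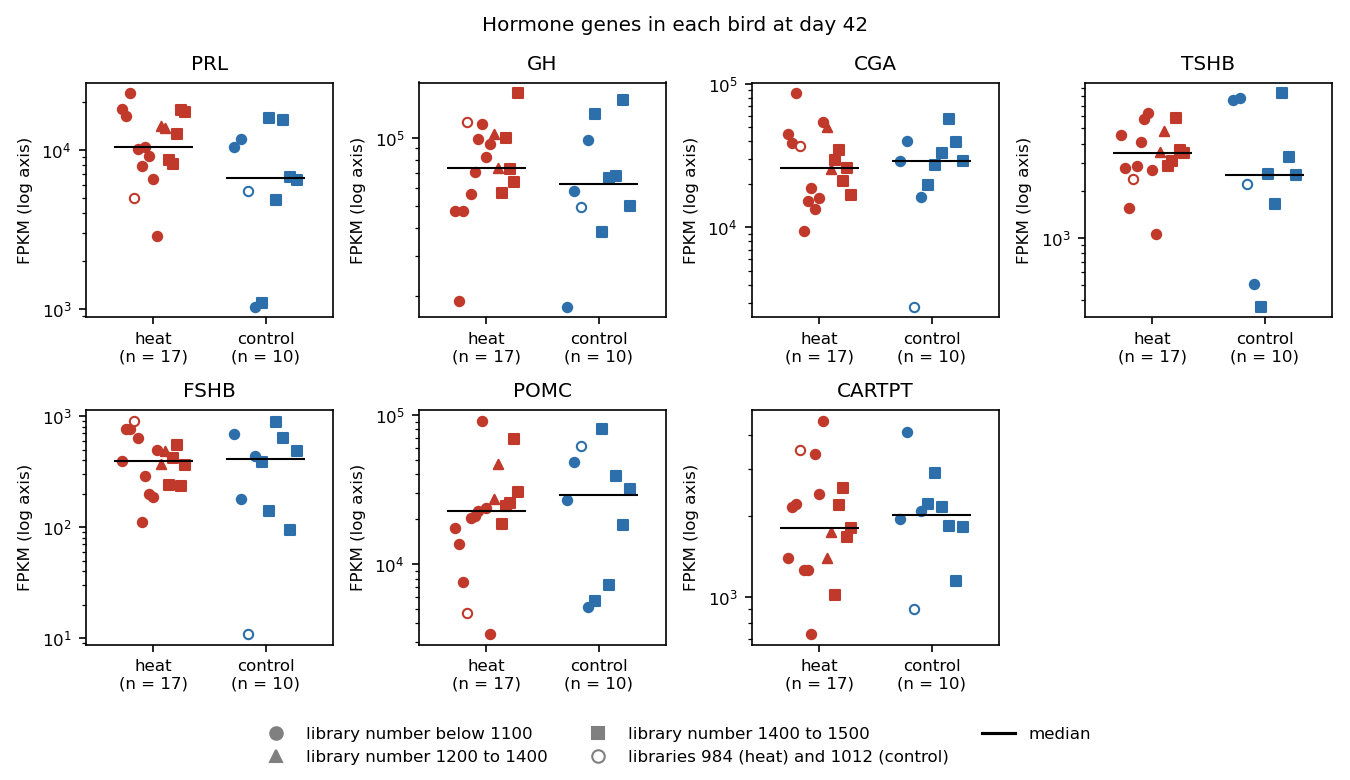
FPKM on a log axis of 7 hormone genes in each heat-stressed (left, red) and control bird (right, blue) at day 42, with the median as a line. The groups overlap in every gene. Control library 1012 is the lowest bird for CGA and FSHB, and the PRL median is 10429.6 FPKM in heat-stressed birds and 6622.7 FPKM in control birds.

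No receptor for a hypothalamic factor and no transcription factor of the pituitary lineages passed the test. Of 9 receptors tested 5 (55.6%) had a positive difference, and the median was 0.01, beside 46.6% and -0.02 for all genes tested. The receptor for growth hormone-releasing hormone (GHRHR) had a difference of 0.05 (interval -0.74 to 0.85), that for thyrotropin-releasing hormone (TRHR) 0.06 (-0.89 to 1.01), that for corticotropin-releasing hormone (CRHR1) -0.03 (-1.13 to 1.07), that for gonadotropin-releasing hormone (GNRHR) -0.47 (-1.09 to 0.16) and the dopamine receptor DRD2 -0.12 (-0.88 to 0.64). These wide intervals leave room for changes in either direction in all 5 receptors. The differences were -0.30 for GHRHR, -0.03 for TRHR, 0.29 for CRHR1, -0.56 for GNRHR and 0.12 for DRD2 without libraries 984 and 1012. POU1F1, the factor of the growth hormone, prolactin and thyrotropin lineages, had medians of 214.2 FPKM in heat-stressed birds and 189.5 FPKM in control birds, with a difference of 0.31 (interval -0.18 to 0.79), which was 0.12 without those libraries. Of 18 lineage factors tested, 7 (38.9%) had a positive difference, beside 46.6% of all genes tested. NEUROD1, a factor of the corticotroph lineage, was the only lineage factor with an unadjusted p under 0.05 (0.45, p = 0.0499, adjusted p = 0.999, limma), and its difference was 0.30 without those libraries. DIO2, the deiodinase that activates thyroid hormone, had a difference of 0.55 (interval -0.36 to 1.46), and 0.32 without them.

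The 12 genes with the smallest p of those lower in heat-stressed birds were led by BCL6, RACGAP1 and CLK2, and none passed the test. BCL6, a transcriptional repressor, had the smallest p of the table, with 3.343 to 15.54 FPKM in heat-stressed birds and a median of 8.948, against 9.584 to 26.22 FPKM in control birds and a median of 14.11. Of the 17 heat-stressed birds 9 were below the lowest control bird, and 4 control birds were above the highest heat-stressed bird. The difference was -0.73 ± 0.19 (log2, SE, p = 5.38e-04, adjusted p = 0.999, limma).

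RACGAP1, which is needed for the final separation of dividing cells, had 0 to 3.602 FPKM in heat-stressed birds, with a median of 2.284, against 2.437 to 7.028 FPKM in control birds, with a median of 4.241. No heat-stressed bird reached the control median, and 8 of 10 control birds were above the highest heat-stressed bird. The difference was -0.76 ± 0.20 (p = 6.56e-04, adjusted p = 0.999, limma), and it was -0.75 among libraries below 1100 and -0.71 among those of 1400 to 1500. CLK2, a kinase of splicing factors, had 4.397 to 23.60 FPKM in heat-stressed birds against 17.98 to 35.39 FPKM in control birds. Of the heat-stressed birds 11 were below the lowest control bird, and the difference was -0.66. FGF16, a fibroblast growth factor, had 0 to 7.670 FPKM in heat-stressed birds against 5.347 to 9.580 FPKM in control birds, with 12 heat-stressed birds below the lowest control bird and a difference of -0.88. GINS1, a subunit of the replication helicase complex, was listed at 0 in 10 heat libraries and in 1 control library, and its difference was -1.35.

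The other lower genes of the 12 were FCN2 (-0.88), a lectin of innate immunity, MPND (-1.92), LAMC3 (-1.02), a laminin chain, FAM86A (-0.73), APOA4 (-0.94), an apolipoprotein, NXPH3 (-0.49), a neurexin ligand, and SLC26A4 (-0.84), an anion exchanger. All adjusted p-values were 0.999 (limma). MPND was listed at 0 in 8 heat libraries and 1 control library. APOA4 and SLC26A4 averaged 0.2144 and 0.9258 FPKM in heat-stressed birds and 2.376 and 2.575 FPKM in control birds. They thus met the filter of 1 FPKM only through the control birds. In control library 1415 APOA4 was at 14.65 FPKM. The difference of FCN2 was -0.59 without libraries 984 and 1012. FCN2, FGF16 and MPND overlap other annotated genes, LOC427783, LOC100857145 and SAFB2, and whether strand was used in counting is not given in the sources used here.

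MBP and AVP were among the genes with the smallest p of those higher in heat-stressed birds. MBP, a myelin protein, had 11.36 to 75.65 FPKM in heat-stressed birds, with a median of 36.35, against 9.889 to 40.34 FPKM in control birds, with a median of 14.67. AVP, the precursor of the posterior lobe hormone vasotocin, had 0 to 16.96 FPKM in heat-stressed birds, with a median of 1.673, and 0 to 1.949 FPKM in control birds, with a median of 0.1177. Its 4 highest birds were heat libraries 981, 982, 983 and 984. MBP was highest in heat libraries 982, 983 and 984, at 75.65, 62.89 and 58.62 FPKM. Heat libraries numbered 995 to 1077 had 11.36 to 26.82 FPKM of MBP, and control libraries below 1100 had 9.889 to 16.45 FPKM. Among libraries of 1400 to 1500 the MBP difference was 0.85 (log2). The differences were 0.96 for MBP and 1.24 for AVP, each with an adjusted p of 0.999 (limma). They were 0.85 and 1.04 without libraries 984 and 1012, which kept heat libraries 981, 982 and 983.

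The marker list of myelin had 4 tested genes of 12, of which 3 had a positive difference, with a median of 0.39 (log2), which was 0.17 without libraries 984 and 1012 and 0.14 among libraries of 1400 to 1500. Its summed level was 23.72 to 98.29 FPKM in heat-stressed birds, with a median of 56.05, and 14.09 to 68.39 FPKM in control birds, with a median of 31.54. The marker list of neurons and hypothalamic peptides had 9 positive differences of 11 and a median of 0.20, which was 0.11 without libraries 984 and 1012 and -0.12 among libraries of 1400 to 1500, with a sum of 185.7 to 889.0 FPKM in heat-stressed birds and 125.9 to 623.5 FPKM in control birds. The list of astroglia and pituicytes had 5 positive differences of 8, with a sum of 20.08 to 65.94 FPKM in heat-stressed birds and 15.84 to 80.28 FPKM in control birds. MBP and AVP, which were named for their p, are themselves members of the myelin and neuron lists. Each had the highest difference of its list, so the list values are not independent of them. Over all genes tested 46.6% had a positive difference. AVP was listed at 0 in 2 heat and 3 control libraries, and MBP in none. AVP averaged 3.813 FPKM in heat-stressed birds and 0.4552 FPKM in control birds. It thus met the filter of 1 FPKM only through the heat-stressed birds. The part of neural tissue in the differences of MBP and AVP, or in any other, was not tested.

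The remaining higher genes included TOMM70A, NDUFV3 and ATP5J, which act in mitochondria. TOMM70A, a receptor for protein import into mitochondria, had 2.003 to 10.81 FPKM in heat-stressed birds and 0 to 6.022 FPKM in control birds, was listed at 0 in 4 control libraries, and had a difference of 1.22. Heat libraries 981 to 984 had 7.560 to 10.81 FPKM of TOMM70A, and those numbered 995 to 1077 had 2.003 to 4.313 FPKM. Among libraries of 1400 to 1500 its difference was 1.34. NDUFV3, a subunit of complex I of the respiratory chain, had means of 106.1 ± 34.52 FPKM in heat-stressed birds and 70.70 ± 12.51 FPKM in control birds (SD, n = 17 and 10) and a difference of 0.53. ATP5J, a subunit of ATP synthase, had means of 399.6 ± 152.0 FPKM in heat-stressed birds and 258.4 ± 72.19 FPKM in control birds, with a difference of 0.57. Over the 53 tested genes of the respiratory chain the median difference was 0.02, with 31 positive and these as the only 2 at an unadjusted p under 0.05. For all genes tested the median was -0.02, and 46.6% were positive. ORMDL1, a regulator of sphingolipid synthesis, had 12.16 to 38.97 FPKM in heat-stressed birds against 8.346 to 21.30 FPKM in control birds, with 13 of 17 heat-stressed birds above the highest control bird and a difference of 0.54. The others were TEKT1 (1.47), a tektin of cilia, MASP2 (0.80), a protease of complement, NDNF (0.69), a secreted neurotrophic factor, and TMEM121 (0.47). TEKT1 was listed at 0 in 4 heat libraries and 7 control libraries. MASP2 averaged 2.004 FPKM in heat-stressed birds and 0.6407 FPKM in control birds. MASP2 thus met the filter of 1 FPKM only through the heat-stressed birds. Without libraries 984 and 1012 the difference of TEKT1 was 1.74 and that of TOMM70A was 1.00. HSPD1 overlaps COQ10B, TEKT1 overlaps FBXO39 and MASP2 overlaps TARDBP.

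**Figure D3:**
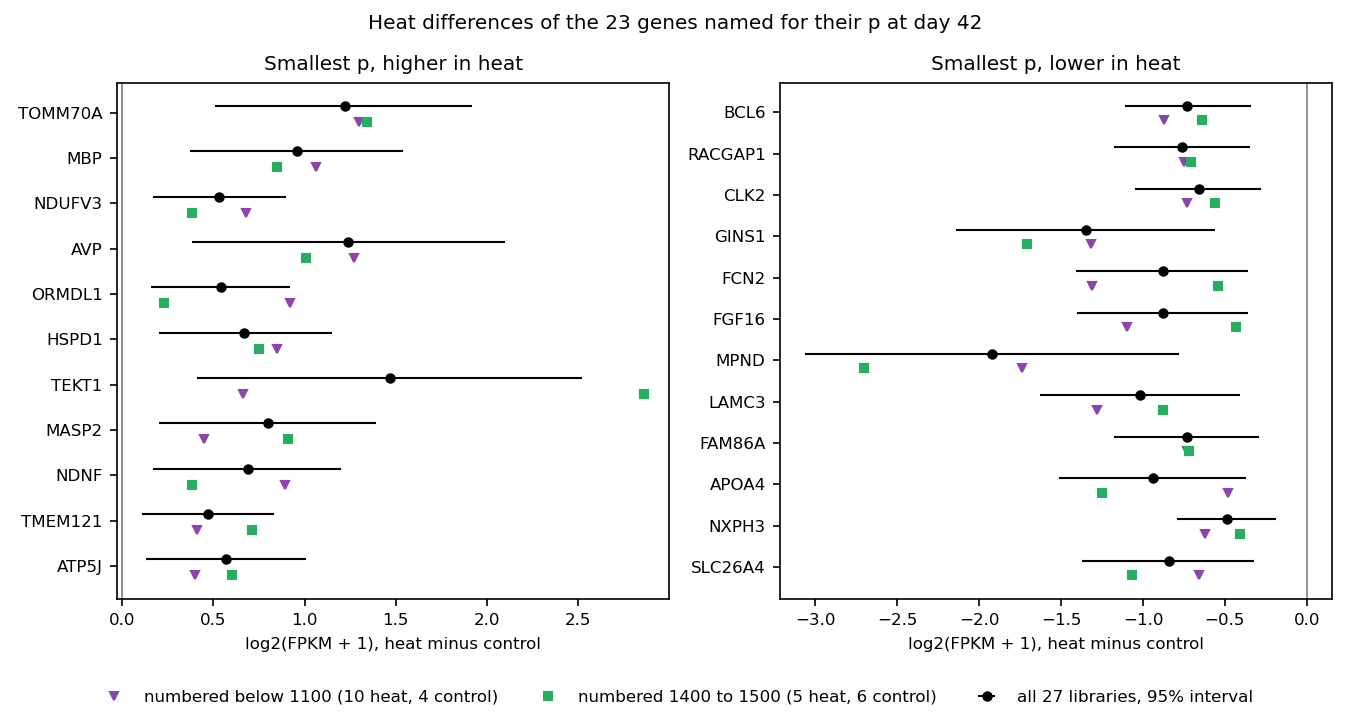
Difference of log2(FPKM + 1), heat minus control, of 11 genes higher (left) and 12 lower (right) named for their p, with 95% intervals over all 27 libraries (circles) and the differences within libraries numbered below 1100 (triangles) and 1400 to 1500 (squares). All 23 adjusted p-values were 0.999, and the values within the ranges come from libraries that also served to choose the genes.

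Most genes of the cell cycle and of collagen and matrix had lower mean log2 values in heat-stressed birds, and none passed the test. Lower values were also the more frequent over all genes. Of all 9231 genes tested, 4929 had a negative difference, and 1.98% were lower at an unadjusted p under 0.05. Of 25 cell cycle genes tested 22 had a negative difference, 4 with an unadjusted p under 0.05 (CCNA2, CCNB3, PLK1 and CENPF), and the median was -0.23 (log2), beside -0.02 for all genes. CENPF, a kinetochore protein, had medians of 0.8443 FPKM in heat-stressed birds and 1.783 FPKM in control birds, and CCNB3, a cyclin, had 5.883 FPKM in heat-stressed birds and 7.152 FPKM in control birds. Of 31 collagen and matrix genes 23 had a negative difference, 3 with an unadjusted p under 0.05 (COL4A2, SPARC and VCAN), and the median was -0.23. SPARC, a matrix protein, had 221.2 to 681.8 FPKM in heat-stressed birds, with a median of 346.4, against 284.9 to 769.0 FPKM in control birds, with a median of 544.9. Of 12 endothelial and pericyte markers 11 had a negative difference, with a median of -0.16 and a sum of 79.76 to 290.7 FPKM in heat-stressed birds against 140.6 to 257.0 FPKM in control birds. Of 19 immediate early genes 15 had a negative difference, with a median of -0.17 and 0 at an unadjusted p under 0.05. The 4 red blood cell genes tested, of 15 on the list, all had negative differences, with a sum of 35.48 to 391.3 FPKM in heat-stressed birds against 68.74 to 440.9 FPKM in control birds. Their median was -0.03 among libraries below 1100 and -0.64 among those of 1400 to 1500. The part of blood and vessels in the other differences was not tested. For the cell cycle, matrix, endothelial and immediate early lists the medians without libraries 984 and 1012 were -0.32, -0.30, -0.26 and -0.15, beside -0.11 for all genes. Among libraries below 1100 the matrix median was of the opposite sign at 0.13, and the cell cycle median was -0.11, beside 0.12 for all genes, while among those of 1400 to 1500 they were -0.31 and -0.24, beside -0.04. The immediate early median was -0.21 below 1100 and -0.06 in 1400 to 1500, and the endothelial median was -0.19 and -0.22.

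**Figure D4:**
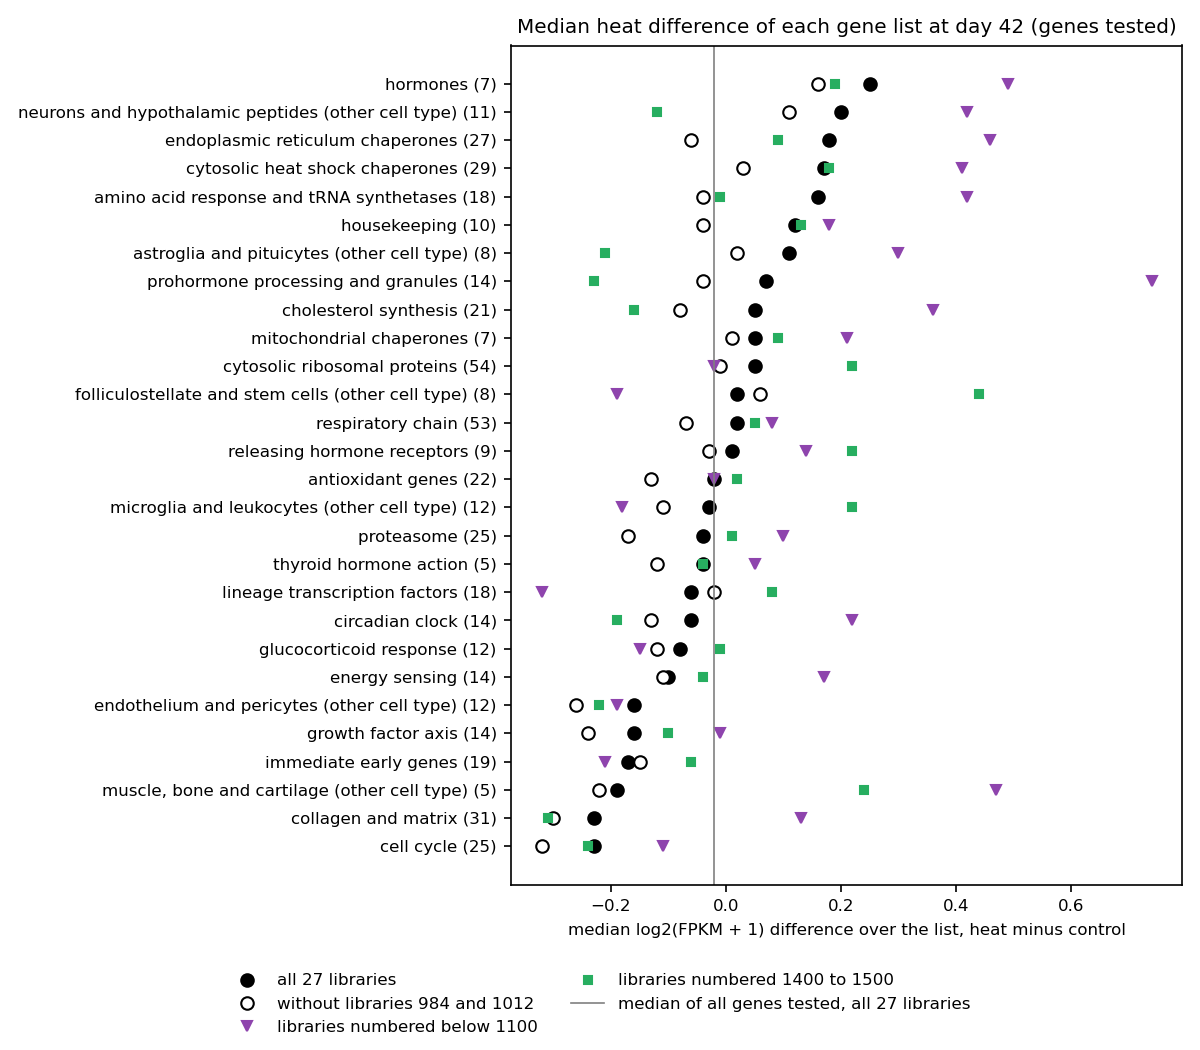
Median difference of log2(FPKM + 1), heat minus control, over the tested genes of each list with at least 5, with the number tested in brackets, for all 27 libraries (filled circles), without libraries 984 and 1012 (open circles) and within libraries numbered below 1100 (triangles) and 1400 to 1500 (squares). Medians over all 27 libraries run from -0.23 for cell cycle and matrix genes to 0.25 for hormones, and no gene of any list was called.

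The heat difference of chaperones at other days was taken beside the values of day 42. There were 13, 5, 6 and 5 heat-stressed birds and 10, 6, 6 and 5 control birds at days 22, 26, 32 and 40. The labelled exposure was not the same on these days. The sample titles of day 32 name a span of hours, longer than at day 26. Those of day 40 name a week and no hours. At day 22, after 8 hours of heat, 10 genes were called higher (0.121% of those tested) and 1 lower (0.0121%), at day 26, after 2 hours of the daily heat, 46 higher (0.507%) and 7 lower (0.0771%), and at days 32 and 40 none (0%). In either direction these were 0.133% at day 22 and 0.584% at day 26, while 4.93, 13.7, 5.92 and 4.71% of genes had an unadjusted p under 0.05 at days 22, 26, 32 and 40. Genes of the cytosolic chaperone list made up 6 of the higher genes at day 22 and 12 at day 26. Those 12 include SERPINH1 of the endoplasmic reticulum (1.12, adjusted p = 0.0409, limma). The median difference of this list was 0.29, 0.82, -0.02, 0.05 and 0.17 (log2) at days 22, 26, 32, 40 and 42. Over all genes tested the medians on those days were -0.02, 0.06, -0.17, -0.05 and -0.02. HSPA2 had differences of 1.28, 3.46, 0.35, 0.31 and 0.69 on those days, and HSPA5 had 1.13, 2.02, 0.64, 0.10 and 0.49. CIRBP had -0.57, -0.09, -0.07, -0.00 and -0.32, of which the value at day 22 passed the test (adjusted p = 0.00177, limma).

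The libraries of the other days did not have the hormone profile of those of day 42. GH averaged 14.2, 37.5, 17.9, 15.1 and 80889.7 FPKM in heat-stressed birds at days 22, 26, 32, 40 and 42, and 25.8, 3.62, 30.2, 13.4 and 72003.2 FPKM in control birds. MBP averaged 29198, 27699 and 36.59 FPKM in heat-stressed birds at days 26, 32 and 42, and 44015, 29745 and 16.96 FPKM in control birds. At days 22 and 40 MBP was not among the genes tested. CGA averaged 43.2, 44.9, 81.4, 3.28 and 31582 FPKM in heat-stressed birds at days 22, 26, 32, 40 and 42, and 17.4, 107.6, 319.3, 3.78 and 29192 FPKM in control birds. GH and CGA were thus far lower in the libraries labelled pituitary at days 22, 26, 32 and 40 than at day 42, and MBP was far higher at days 26 and 32. The tables of the days are separate, so day, length of heat, tissue content and processing cannot be told apart in any difference between them.

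The heat difference at day 42 was tested against that at other days in a joint fit. Against day 22, 0 of 7379 genes differed (0%), with 130 at an unadjusted p under 0.05 (1.76%), and against day 40, 0 of 7800 (0%), with 118 (1.51%). Without libraries 984 and 1012, 1 gene differed from day 22, and it was RACGAP1. The comparison with day 26 was added after the data were seen, and there 9 of 7933 genes differed (0.113%), with 361 at an unadjusted p under 0.05 (4.55%). HSPA2 had a heat difference of 0.69 at day 42, against 3.46 at day 26, and day 42 minus day 26 was -2.77 (interval -3.84 to -1.71, adjusted p = 0.00690, limma). BAG3 had 0.47 at day 42 and 3.30 at day 26 (adjusted p = 4.13e-04), and HSPB8, a small heat shock protein, had 0.11 at day 42 and 2.38 at day 26 (adjusted p = 0.00240). The control mean of HSPB8 was 89.25 FPKM at day 42 and 13.79 FPKM at day 26. Its heat mean was 99.33 FPKM at day 42 and 75.69 FPKM at day 26. At days 42 and 26 the control means of HSPA2 were 72.06 and 77.33 FPKM, and those of BAG3 were 33.85 and 41.08 FPKM. For HSPA5 and HSP90AA1 the difference between these days did not pass the test, at -1.52 (interval -2.52 to -0.52, adjusted p = 0.630) and -1.48 (interval -2.76 to -0.21, adjusted p = 0.992). Against day 40 the change in HSPA2 was 0.37 (interval -0.60 to 1.34), which did not pass the test.

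**Figure D5:**
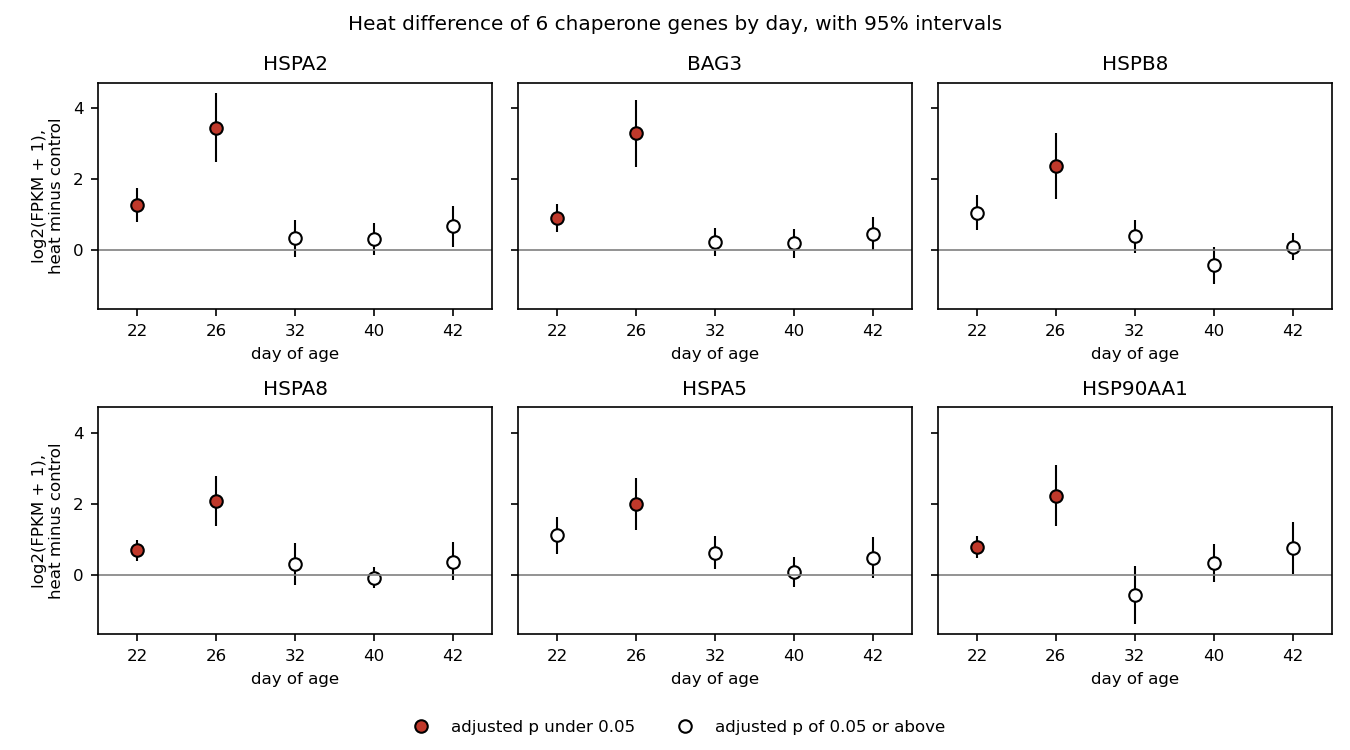
Difference of log2(FPKM + 1), heat minus control, of 6 chaperone genes at days 22, 26, 32, 40 and 42, with 95% intervals, filled where the adjusted p was under 0.05. HSPA2 has 3.46 at day 26 and 0.69 at day 42, and no gene is filled at days 32, 40 or 42. The labelled length of heat differed between days.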

How the data were processed

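RNA was measured by RNA-seq of whole pituitary glands, 1 library per bird, with an Illumina stranded kit. The authors aligned reads to galGal4 with Bowtie and TopHat and deposited Cufflinks FPKM in 1 table per day. Tool versions are not given in the sources used here. Groups came from the sample titles. Of 19 heat-stressed birds labelled at day 42, 17 had a column, and 3 columns of the day 22 table that match no labelled sample were not used. Reads per library are not known from FPKM, so no counting interval was computed, and depth is described by genes listed at 0. The 16 missing values of control library 1417 were left out.

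Genes whose mean reached 1 FPKM were compared on log2(FPKM + 1) with limma 3.58.1 (R 4.3.3), with a trend in the variance prior and Benjamini-Hochberg adjustment over all genes tested. Differences on this scale understate changes of low genes. Birds were taken as replicates, although all birds of a treatment shared 1 house. Library measures used a two-sided permutation test with 100000 resamples. Joint fits over 2 days used genes in both tables. The fit was tested on simulated data.

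1 gene is not reported here, although it was in the fit. Genes named were the 12 higher and 12 lower with the smallest p, all hormones and a fixed set of chaperones, receptors and stress genes. Other list members named, for an unadjusted p under 0.05 or as a list's extreme, were picked with their values in view. The birds, lists and rules were chosen with earlier results of these data known. Alternatives were another pseudocount (0.1), no filter or a mean of 5 FPKM, rescaling to the median gene, TPM, library-number range as a covariate or taken alone, array weights, a rank test, genes with no 0, and leaving out libraries. Promoter motifs were not searched, since no sequences were used here.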

Additional observations from a re-analysis of the deposited data

Results flagged for a closer look

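Among the 10 control birds, 19 of 52 values examined had 1 bird far from the other 9, and 13 of the 19 were in library 1012. The cutoff would flag about 1 in 20 groups of independent, normally spread values. That rate does not apply here, since all values share the same birds, FPKM can be skewed, and some genes were chosen for their p. In library 1012 the number of genes at 1 FPKM or more was 6709 (8865 to 9481 in the other controls) and the median gene was at -1.21 (log2) relative to the median library. The same library had the lowest control value of NDUFV3 (43.6 FPKM), HSPD1 (9.74), FAM86A (6.72), CGA (2806), FSHB (10.9), HSPA2 (33.8), HSPH1 (0.772), HSPA5 (88.0), DNAJA1 (11.4) and POU1F1 (40.1), and the highest of FCN2 (35.4 FPKM, against 3.46 to 12.4 in the others).

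In library 1420, MBP was at 40.3 FPKM (9.89 to 20.6 in the other controls). MASP2 was at 3.07 FPKM in library 993, and APOA4 at 14.6 FPKM in library 1415 (0.107 to 2.40 in the others). GINS1 and MPND were both listed at 0 in library 1414. The lowest 1% of values above 0 ended at 0.0469 FPKM in library 1013, against 0.00503 to 0.0226 FPKM in the other controls.

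The heat difference at day 42 differed from that at day 26 in 9 genes (limma). The change, day 42 minus day 26, was -2.77 for HSPA2, -2.83 for BAG3, -2.26 for HSPB8, -6.20 for HSP25, -2.14 for SCAF4 and -1.17 for TOP1MT. It was 4.63 for ACTA1, 3.64 for TNNI2 and 3.50 for TNNC2, genes of the muscle fibre, whose heat differences were -0.36, -0.19 and -0.14 at day 42 and -4.99, -3.83 and -3.64 at day 26. HSP25, a small heat shock protein that is on none of the gene lists, had heat differences of -0.05 at day 42 and 6.15 at day 26.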

How the results depend on the processing

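The count of genes called at day 42 was 0 under every alternative except libraries numbered below 1100 alone, where it was 1. The genes at an unadjusted p under 0.05, 242 here, were 899 with array weights (smallest adjusted p 0.0625), 995 in libraries numbered 1400 to 1500 with the filter applied to those libraries alone (9356 genes tested), 542 with no filter, 472 with rescaling, 488 without libraries 984 and 1012, 139 at a mean of 5 FPKM and 133 among genes with no 0. Leaving out each library in turn gave 0 to 0 calls, with 196 (without control library 1420) to 503 (without control library 1012) genes at an unadjusted p under 0.05. Without libraries 984 and 1012, an alternative chosen after seeing the data, the genes differing from day 22 were 1 and from day 26 were 16, which include all 9 of the full set. The cause was not tested. No paired analysis was possible because library numbers are not shared between groups.

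For 46 single genes, 589 of 617 values under other alternatives kept their sign, none passed the threshold, and 28 changed sign, all in genes with a difference under 0.5 in size. With array weights these were CGA (-0.21), POMC (0.37), CRHR1 (0.37), TRHR (-0.08), GHRHR (-0.22) and DRD2 (0.11). In libraries of 1400 to 1500 they were CGA (-0.38), POMC (0.54), CIRBP (0.06), CRHR1 (0.53), GHRHR (-0.16), GNRHR (0.26) and DRD2 (0.16). Without libraries 984 and 1012 they were CGA (-0.19), POMC (0.16), CRHR1 (0.29), TRHR (-0.03), GHRHR (-0.30) and DRD2 (0.12), and with rescaling as well CGA (-0.07), POMC (0.28), CRHR1 (0.41), GHRHR (-0.18) and DRD2 (0.22). The others were CARTPT below 1100 (0.02), CRHR1 with the range as a covariate (0.04) and without library 1417 (0.09), and TRHR with a pseudocount of 0.1 (-0.02). Leaving out single libraries changed the sign in 33 of 1238 values, with ranges of -0.16 to 0.32 for CGA, -0.37 to 0.07 for POMC, -0.18 to 0.06 for CARTPT, -0.33 to 0.21 for CRHR1, -0.23 to 0.26 for TRHR, -0.26 to 0.20 for GHRHR and -0.25 to 0.09 for DRD2.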

Other observations

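Among groups not described above, 38 of 54 cytosolic ribosomal protein genes had a positive difference, with a median of 0.05 (log2), and RPL29 was the only one with an unadjusted p under 0.05 (0.72, adjusted p = 0.999, limma). The circadian clock had 5 positive differences of 14 and cholesterol synthesis 14 of 21, with medians of -0.06 and 0.05. For all genes tested the median was -0.02, and 46.6% were positive. SLC7A5, an amino acid transporter, had 0.4013 to 9.264 FPKM in heat-stressed birds and 0.7119 to 1.707 FPKM in control birds, with a difference of 0.60.

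Some single values lay far from all others. PPIB, a prolyl isomerase of the endoplasmic reticulum, had 60004 FPKM in heat library 1014 and 258.8 to 1213.3 FPKM in the other heat libraries, against 327.2 to 1148.8 FPKM in control libraries. EEF1A1, an elongation factor that all cells use, was listed at 0 in 9 of 17 heat libraries and 7 of 10 control libraries, and at up to 2154.9 FPKM in heat libraries and 1385.5 FPKM in control libraries.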
